A study of Mus musculus with 12 samples.

Results

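The first days of factor-induced reprogramming were followed here by comparing control cells after 6 days of factor expression with control cells after 3 days. The comparison holds 6 of the 12 arrays of the study, 3 for each day, chosen by their labels and paired by replicate number. Fibroblasts from embryos at E13.5, of mixed C57Bl/6 and 129X1/SvJ strain and of the genotype Col1a1::tetOP-OKSM ; R26-M2rtTA, were used in every group. These cells carry the coding regions of Oct4 (Pou5f1), Klf4, Sox2 and c-Myc behind a doxycycline-dependent promoter, and the reverse transactivator that doxycycline switches on. A retrovirus delivered the hairpin, which in the control groups was aimed at Renilla luciferase, a gene that mouse cells do not have. Cells were kept with doxycycline for 3 or 6 days in embryonic stem cell medium with serum and LIF. The other 6 arrays, 3 per day, came from the same kind of cells with a hairpin against Chaf1a, the large subunit of the histone chaperone CAF-1, and entered the fit as further replicated groups. All groups therefore carried the induced factors and a retroviral hairpin, and no array of uninduced fibroblasts or of finished stem cells was part of the comparison. The labels do not say whether replicates were separate embryos or cultures, so a p-value measures the spread between these samples, which may be technical.

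In fibroblasts, the 4 factors are known to act in steps. Cells first lose parts of the contractile and mesenchymal programme and gain E-cadherin and other epithelial genes, a change called the mesenchymal-to-epithelial transition. Surface proteins such as Thy1 and CD44 fall in the cells that progress, and the endogenous pluripotency genes are switched on late and in few cells. A bulk array reads the mean of all cells in the dish, so fewer cells of a type and less RNA per cell cannot be told apart.

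Levels are log2 values of the deposited intensity, and a difference is day 6 minus day 3 on that log2 scale, so that 1 unit is a doubling. Where 3 values are given for a day, they are replicates 1, 2 and 3 in that order. The arrays had medians of 5.30 to 5.42, and arrays of the same control group correlated at a Pearson r of 0.991 to 0.995 over all probe sets. Of 10 fibroblast markers, 8 lay above the array median on all 6 control arrays, while Lum, which encodes lumican, was under the 30th percentile on all 6. Of 10 markers of established pluripotent cells, 0 passed the test, and their summed intensity ranged from 313 to 322 on day 3 arrays and from 316 to 342 on day 6 arrays. Day 6 replicate 1 stood somewhat apart from the other day 6 arrays in the scores of some gene lists. It had the lowest scores for replication and mitosis genes and the highest for matrix genes. For several of the results that rest on it, values without it are also given.

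Expression at day 6 differed from day 3 across a large part of the measured genes. Of 17860 genes tested with limma and the pairing, 1398 (7.83%) were higher and 1969 (11%) lower at a Benjamini-Hochberg adjusted p under 0.05, or 18.9% in either direction. Counting these, 5566 genes had an unadjusted p under 0.05. Most of the changes were small: 83 genes rose and 47 fell at least 2-fold. The 3 day 6 arrays lay on the same side of all 3 day 3 arrays for 3209 of the 3367 genes that passed, and the direction held in all 3 pairs for 1397 of those higher and 1966 of those lower. These genes were picked by a test on the same arrays, which largely fixes both counts. They describe the called genes and are no separate support, and the shares over all genes tested are not given here. The median difference over all genes was 0.01, and the 95% interval of a gene's difference extended by 0.18 to either side at the median. On the first principal component, which held 59.3% of the variance of the 6 control arrays, the day 3 arrays lay at −12.4, −22.6 and −14.9 and the day 6 arrays at 20.8, 14.6 and 14.3. On the second, with 16.5%, replicate 2 was the lowest of both days, at −13.2 on day 3 and −10.1 on day 6. The counts fell by more than 1.5 times when some arrays were left out: to 895 higher and 1134 lower without day 6 replicate 1, 901 and 1288 without day 6 replicate 2, 1111 lower without day 3 replicate 2 and 1305 lower without day 6 replicate 3. In the plot of all genes, the largest rises reach further than the largest falls.

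**Figure D1:**
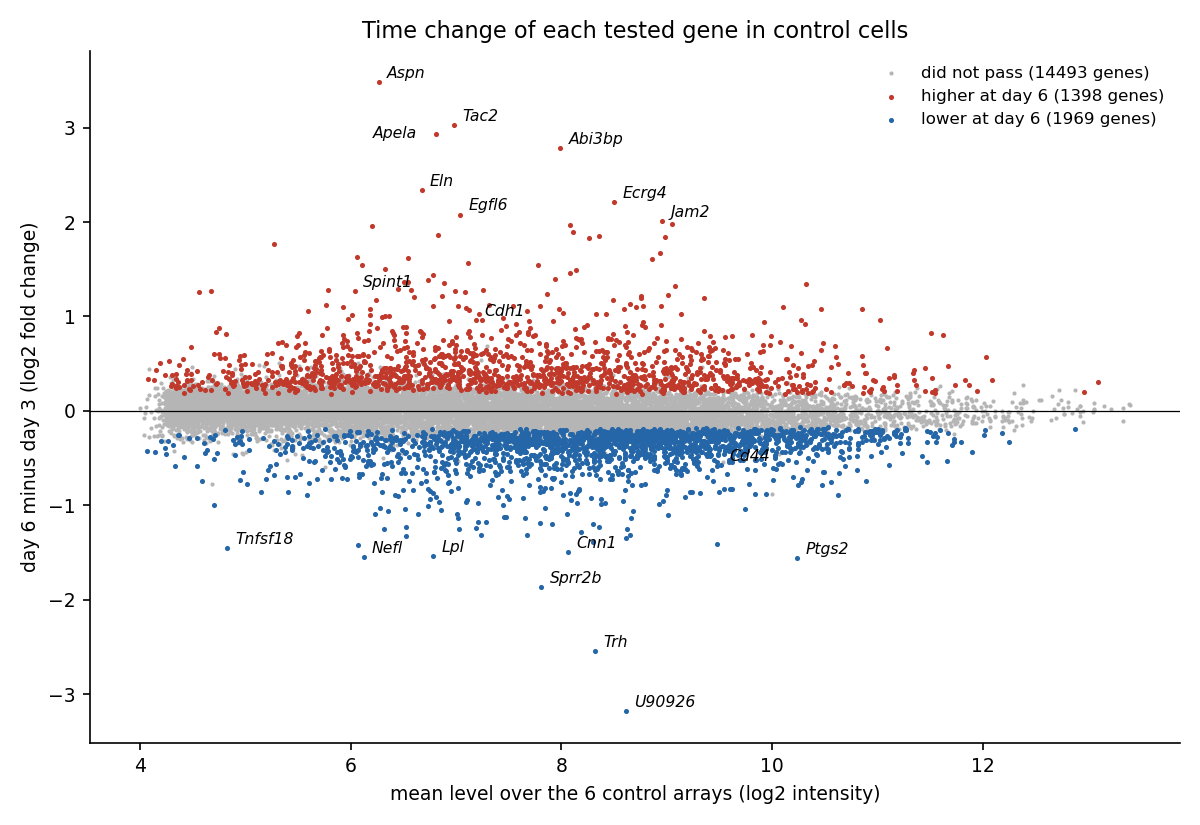
Each point is 1 of 17860 genes in control cells. The horizontal axis is the mean level over the 6 control arrays (log2 intensity), the vertical axis the difference between day 6 and day 3 (log2 fold change). Red points passed as higher (1398), blue points as lower (1969) and grey points did not pass. Aspn, Tac2 and Apela lie highest, and U90926 and Trh lowest.

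The genes with the largest rises were mostly secreted peptides and matrix proteins. Aspn, which encodes asporin, a small leucine-rich proteoglycan, stood at 4.65, 4.42 and 4.50 at day 3 and at 8.90, 7.70 and 7.41 at day 6. It lay just above the filter for low values on every day 3 array and far above it on every day 6 array, with replicate 1 the highest, a difference of 3.48 (SE 0.29, 11.2-fold, adjusted p = 2.81e-05). Without day 6 replicate 1 the difference was 3.30. Tac2, the precursor of the peptide neurokinin B, stood at 5.26, 5.51 and 5.62 and then at 8.24, 8.68 and 8.55. Its groups were far apart and tight, a rise of 8.17-fold (adjusted p = 3.14e-08). Apela encodes a secreted peptide ligand of the apelin receptor that pluripotent stem cells make. It stood at 4.98, 5.38 and 5.66 and then at 7.83, 8.51 and 8.48, a rise of 7.64-fold (adjusted p = 2.42e-06) with replicate 1 the lowest on both days. Abi3bp, an extracellular matrix protein, stood at 6.73, 6.12 and 6.94 and then at 9.77, 9.23 and 9.14. Every day 6 array was above every day 3 array, a rise of 6.87-fold (adjusted p = 2.64e-06).

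Further large rises covered elastin, adhesion proteins and enzymes. Eln, which encodes tropoelastin, rose 5.04-fold, Ecrg4, a secreted peptide precursor, 4.64-fold and Egfl6, a secreted matrix protein with EGF repeats, 4.22-fold. Jam2, a junctional adhesion molecule that is also expressed in pluripotent stem cells, stood at 7.87, 8.09 and 7.89 at day 3 and at 9.80, 10.10 and 9.98 at day 6. The SD was 0.12 at day 3 and 0.15 at day 6 (n = 3), and it rose 4.03-fold (adjusted p = 1.97e-07). The small leucine-rich proteoglycan Ogn rose 3.95-fold, the lipid carrier Apod 3.90-fold and the opioid peptide precursor Penk 3.88-fold. Crym, a binder of thyroid hormone, rose 3.73-fold, the proton pump Atp12a 3.65-fold, Sptssb, a small subunit of serine palmitoyltransferase, 3.60-fold, and the growth factor Ptn 3.58-fold. The 15 largest rises ranged from 1.84 to 3.48, and all 15 passed with any control array or replicate number left out and in the other 10 settings tried.

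The largest falls included hormone, prostaglandin, lipid and actin-binding genes. The transcript U90926 stood at 10.24, 10.15 and 10.21 at day 3 and at 6.76, 7.18 and 7.12 at day 6. It was uniformly high and then uniformly low, a fall of 9.08-fold (difference −3.18, SE 0.12, adjusted p = 1.97e-07). Trh, the precursor of thyrotropin-releasing hormone, stood at 9.32, 9.65 and 9.78 and then at 6.80, 6.96 and 7.37. Each replicate kept its rank between days, and Trh fell 5.83-fold (adjusted p = 3.35e-05). Sprr2b, a small proline-rich protein of the cornified envelope, stood at 8.46, 8.98 and 8.79 and then at 6.53, 6.79 and 7.30, a fall of 3.65-fold. Ptgs2, which encodes cyclooxygenase 2, the inducible enzyme of prostaglandin synthesis, stood at 11.07, 11.05 and 10.92 and then at 9.55, 9.33 and 9.50. It fell 2.94-fold (adjusted p = 1.68e-06) without overlap of the groups.

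Several others fell by between 2.49-fold and 2.92-fold. They were the neurofilament gene Nefl (2.92-fold), the lipoprotein lipase gene Lpl (2.91-fold) and Cnn1, which encodes the actin-binding protein calponin (2.81-fold). Tnfsf18, a ligand of the tumour necrosis factor family, went from a mean of 5.56 to 4.11, the latter under the filter for low values, so its fall of 2.73-fold was taken against background signal. Fndc3c1, Ankrd1, a mechanically responsive nuclear protein, Vcan, which encodes the large proteoglycan versican, and Fabp5, a fatty acid binding protein, fell by 2.68-fold, 2.66-fold, 2.62-fold and 2.55-fold. Ttc9 (2.50-fold), Tshr, the receptor of thyrotropin (2.49-fold), and Pls1, an actin-bundling plastin (2.49-fold), completed the 15. All 15 passed with any control array or replicate number left out and in the other 10 settings. The plot of these 30 genes shows each array with its pair.

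**Figure D2:**
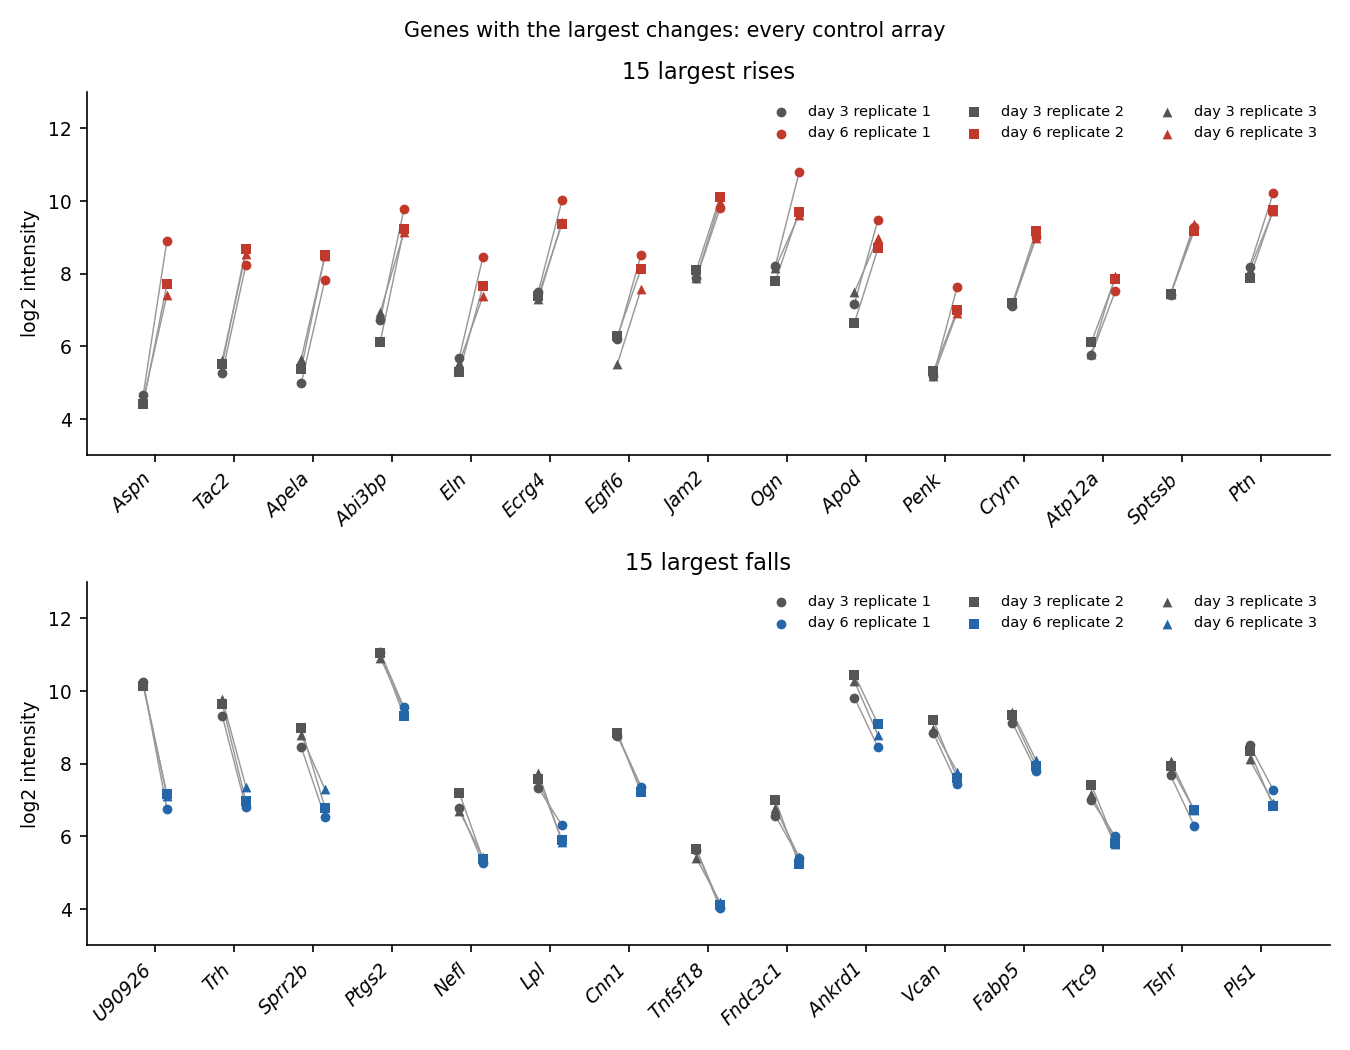
The 15 genes with the largest rises (upper panel) and falls (lower panel) are shown in order of size. The vertical axis is the level (log2 intensity), grey symbols are day 3 arrays, coloured symbols day 6 arrays, the shape marks the replicate and a line joins each pair. All lines of a panel run in the same direction, and day 6 replicate 1 is the highest of its day for Aspn, Eln, Ogn and Penk, among others.

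The probe sets for the 4 induced factors gave no call. Pou5f1 stood at 6.49, 6.52 and 6.40 at day 3 and at 6.44, 6.45 and 6.46 at day 6, and the 95% interval of its difference was −0.16 to 0.13. Klf4 had a difference of −0.10 (adjusted p = 0.309), with every day 6 array below every day 3 array. Sox2 had a difference of 0.11 (adjusted p = 0.342). It stood at 4.54, 4.86 and 4.74 and then at 4.76, 4.97 and 4.74, not far above the filter for low values. Myc was higher in all 3 pairs, with a difference of 0.20 (interval 0.05 to 0.35, adjusted p = 0.0641), and its groups overlapped. Myc passed as higher in 4 of 10 other settings and in 0 of 9 fits with arrays left out. Whether a signal of these genes comes from the induced copies, the cell's own copies or both is not known here.

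Of the 37 genes tested from the core pluripotency network, 9 rose and 0 fell, or 24.3% against the 7.83% of all genes that rose. The median difference of the list was 0.06, against 0.01 for all genes. Beside Jam2, the largest rise was that of Fbxo15, an F-box protein gene used as a reporter of reprogramming, which stood at 5.19, 5.21 and 5.02 and then at 6.65, 6.52 and 6.10. The groups were well apart and the rise was 2.44-fold (adjusted p = 0.000298). Etv5, an ETS transcription factor, rose 1.56-fold, and Tet1, an enzyme that oxidises 5-methylcytosine, rose 1.50-fold from a mean of 6.05 ± 0.07 to 6.63 ± 0.12 (SD, n = 3; adjusted p = 0.00127). Dppa4, a nuclear protein of pluripotent cells, and L1td1, an RNA-binding protein, rose 1.49-fold (adjusted p = 0.0429) and 1.41-fold (adjusted p = 0.0231), but Dppa4 passed in 2 and L1td1 in 3 of the 9 fits with arrays left out. Of the transcription factors at the centre of the network, Nanog stood at 5.59, 5.64 and 5.59 and then at 5.59, 5.54 and 5.56, with an interval of −0.18 to 0.10. Sall4 had a difference of 0.06 (adjusted p = 0.698). The other rises were those of Trim71, Fgf4 and Klf5 (0.42, 0.30 and 0.21), named after their values were seen. With 1 control array left out, between 6 and 10 members rose.

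Genes of epithelial adhesion rose in small number, led by E-cadherin. Cdh1, which encodes it, stood at 6.64, 6.88 and 6.59 at day 3 and at 7.50, 7.71 and 7.79 at day 6. The lowest day 6 array was above the highest day 3 array, a rise of 1.95-fold (difference 0.96, interval 0.68 to 1.25, adjusted p = 0.000537). Of 20 genes of adherens and tight junctions, 4 rose and 0 fell (20% against 7.83%), with a median of 0.10 and 15 of 20 positive. The others were Pard6b, a cell polarity protein (1.52-fold, adjusted p = 0.0101), F11r, a junctional adhesion molecule (1.49-fold, adjusted p = 0.0036), and the claudin gene Cldn3 (1.25-fold, adjusted p = 0.0240). Without day 6 replicate 3, 2 of the 4 were called. Ocln, which encodes the tight junction protein occludin, had a difference of 0.25 and Epcam, an epithelial adhesion protein, of 0.31. In both, every day 6 array was above every day 3 array, but neither passed (adjusted p = 0.243 and 0.286). Each passed in 1 of 9 other settings, the fit on the 6 control arrays alone, and in 0 of 9 fits with arrays left out. Epcam stood at 4.47, 4.52 and 4.45 at day 3, just above the filter for low values. Cdh2, which encodes N-cadherin, had a difference of −0.15 (interval −0.28 to −0.01, adjusted p = 0.131), with every day 6 array below every day 3 array. It passed as lower in 1 of 10 other settings and in 0 of 9 fits with arrays left out.

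Serine protease inhibitors of epithelia rose more than most junction genes. Spint1, which encodes the matriptase inhibitor HAI-1, stood at 5.38, 5.38 and 5.46 and then at 6.32, 6.73 and 6.98. The day 3 arrays were nearly equal and the day 6 arrays spread over a range, all higher, a rise of 2.41-fold (adjusted p = 0.000611). Its relative Spint2 rose 1.70-fold (adjusted p = 0.00229). Of 19 epithelial regulators and proteases, 3 rose (15.8% against 7.83%) and 0 fell, with a median of 0.10. The third was the transcription factor gene Elf3, whose day 6 mean of 4.25 was still under the filter for low values and which passed in 0 of 9 fits with arrays left out.

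Desmosome and keratin genes that passed were all lower. Of 16 tested, 0 rose and 4 fell (25% against 11%). Krt19, an intermediate filament protein of simple epithelia, stood at 9.31, 9.58 and 9.37 and then at 8.42, 8.48 and 8.40, without overlap, a fall of 1.98-fold (adjusted p = 9.72e-06). The desmosomal cadherin Dsc2 fell 1.64-fold, Dsp, which encodes desmoplakin, 1.45-fold and the plakophilin Pkp2 1.33-fold. Without day 3 replicate 2 or without day 6 replicate 1, 2 of the 4 were called. The list's median was −0.00.

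The letters of the promoters are shown for junction genes because Snail and Zeb repressors are known to bind the E-box CACCTG in such promoters. A window from 250 bases before to 50 bases after the start site (RefSeq, GRCm38.p6) was found for 15 of the 20 junction genes, and 12 of these (80%) held CACCTG or its reverse complement CAGGTG. Among all 27025 genes of the promoter table it was 22.6%. It was 22.8% of the tested genes with a promoter and 21.8% of all genes higher at day 6 with one. Of the 12, 3 were among the 4 junction genes that rose. The motif was chosen after the expression values were seen, and a match describes letters and not a bound site. Capitals mark the E-box in Pard6b (chr2:168080828-168080958, plus strand), which held it at 2 places, and in F11r (chr1:171437404-171437479, plus strand).
Pard6b: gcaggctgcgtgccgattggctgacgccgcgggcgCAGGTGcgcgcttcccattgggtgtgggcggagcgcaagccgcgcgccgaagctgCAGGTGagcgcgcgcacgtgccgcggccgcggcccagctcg
F11r: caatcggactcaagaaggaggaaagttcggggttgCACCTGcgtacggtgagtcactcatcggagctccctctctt

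The mesenchymal transcription factors did not fall as a group. Of 22 tested, 7 rose and 3 fell (31.8% and 13.6%, against 7.83% and 11%), with a median of 0.08. Without day 6 replicate 1, 6 rose. The score of that array, a mean of the members' log2 deviations, was 0.18, against 0.03 and −0.06 for day 6 replicates 2 and 3. Snai1, a repressor of E-cadherin, had a difference of −0.25 (adjusted p = 0.0894) with day 6 replicate 1 at 6.66, inside the day 3 range of 6.62 to 6.73. Its relative Snai2 (−0.01), Zeb1 (0.15), Twist1 (0.32) and Twist2 (−0.46) did not pass either, with adjusted p-values of 0.933, 0.198, 0.0764 and 0.0698. With arrays left out, Snai1 passed as lower in 2 of 9 fits, Twist1 as higher in 1 and Twist2 in 0. In the other settings, Twist2 passed as lower in 3 of 9, Twist1 as higher in 2 of 10 and Snai1 as lower in 1 of 10. Meox2, a homeobox factor of mesoderm, stood at 7.21, 6.66 and 6.42 and then at 8.19, 7.51 and 7.47. Replicate 1 was highest on both days and each pair rose by a similar amount, 1.95-fold (adjusted p = 8.21e-06). The basic helix-loop-helix factor Tcf4 rose 1.56-fold, Osr2 1.61-fold and Nfix 1.33-fold, the last 2 with overlapping groups. Ets1 fell 1.33-fold, Foxc2 1.30-fold and Prrx1, a fibroblast marker as well, by 0.22. Vim, which encodes the intermediate filament vimentin, stood at 13.31 ± 0.02 and 13.34 ± 0.03 (SD, n = 3).

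Surface markers of early reprogramming moved in both directions: of 15 tested, 4 rose and 3 fell (26.7% and 20%, against 7.83% and 11% of all genes). Cd44, the hyaluronan receptor, stood at 9.83, 9.81 and 9.76 at day 3 and at 9.31, 9.12 and 9.24 at day 6. The groups were tight and apart, a fall of 1.49-fold (adjusted p = 0.000137). Cd24a, a small glycoprotein anchored by lipid, fell 1.85-fold (adjusted p = 6.27e-05), and the adhesion receptor Icam1 1.20-fold (adjusted p = 0.0476), which passed in 1 of 9 fits with arrays left out. Podxl, which encodes podocalyxin, a sialomucin of epithelial and pluripotent cells, stood at 9.83, 9.81 and 9.92 and then at 10.62, 10.78 and 10.92. All day 6 arrays were higher, a rise of 1.89-fold (adjusted p = 7.34e-05). Itgb4, an integrin of epithelia, and the receptor kinase gene Kit rose 1.25-fold and 1.24-fold, near the threshold (adjusted p = 0.0290 and 0.0460). The rises numbered 2 without day 3 replicate 1, day 3 replicate 3, day 6 replicate 2 or day 6 replicate 3. Thy1 was not lower: it stood at 9.71, 9.59 and 9.63 and then at 9.99, 9.77 and 9.71, with a difference of 0.18 (interval 0.03 to 0.33, adjusted p = 0.0999). It passed as higher in 2 of 10 other settings and in 0 of 9 fits with arrays left out. Alpl, which encodes alkaline phosphatase, had a difference of −0.15 (adjusted p = 0.389) and Fut4, which makes the SSEA-1 epitope, of −0.04 (adjusted p = 0.770).

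Matrix genes changed in both directions. Of 29 proteoglycan and elastic fibre genes, 7 rose and 4 fell (24.1% and 13.8%, against 7.83% and 11%). Beside Aspn, Eln and Ogn, the collagen-binding proteoglycan gene Fmod stood at 9.80, 9.81 and 10.15 and then at 11.06, 11.09 and 10.85, a rise of 2.11-fold with groups apart. Podn rose 1.65-fold and passed in 6 of 9 fits with arrays left out. Vcan stood at 8.84, 9.19 and 8.96 and then at 7.44, 7.61 and 7.78, the largest fall of the list, at 2.62-fold (adjusted p = 2.42e-06). Fbln2, Ltbp2 and Ltbp1, of elastic fibres and latent TGF-beta, fell by 0.57, 0.56 and 0.52 and were picked out on their values. The list's median was 0.11 over all arrays and −0.01 without day 6 replicate 1, where 6 rose and 4 fell. The score of that array, a mean of the members' log2 deviations, was 0.37, against 0.08 and −0.01 for day 6 replicates 2 and 3.

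Of 23 collagens, 3 rose and 3 fell (13% each, against 7.83% and 11%). Col2a1, the collagen of cartilage, fell 1.55-fold, the fibrillar collagen gene Col5a2 1.53-fold and Col6a1, of the beaded filament collagen, 1.40-fold (adjusted p = 0.000363, 0.00134 and 0.00141). Col15a1 rose 1.51-fold, with overlapping groups, and Col11a1 and Col14a1 passed in 2 and 1 of 9 fits with arrays left out. The rises numbered 1 without day 3 replicate 2 or 3 and without day 6 replicate 1 or 3. Among 20 proteases and inhibitors, 2 rose (10%, near the 7.83% of all genes) and 5 fell (25% against 11%). Plaur, the receptor of urokinase, stood at 9.21, 9.40 and 9.06 and then at 8.12, 8.0 and 8.15, a fall of 2.19-fold (adjusted p = 3.19e-05) and the groups did not overlap. The membrane protease gene Adam19 fell 1.55-fold, the secreted protease gene Adamts12 1.52-fold and the protease inhibitor gene Timp1 1.37-fold and Adamts1 fell by 0.22, while Mmp19 rose 1.34-fold and Timp2 1.26-fold.

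Contractile and smooth muscle genes fell. Of 25 tested, 1 rose (4% against 7.83%) and 11 fell (44% against 11%), with a median of −0.20 against 0.01. Cnn1 stood at 8.77, 8.85 and 8.81 at day 3 and at 7.36, 7.22 and 7.37 at day 6. All replicates were alike within a day, and the fall was the largest of the list. The tropomyosin gene Tpm2 fell 1.77-fold, the LIM protein gene Fhl1 1.44-fold, Actn1, which encodes alpha-actinin, 1.35-fold and Pdlim7 1.29-fold. The only rise was that of Fhl2 (1.34-fold, adjusted p = 0.0132), which did not pass without day 3 replicate 1 or without day 6 replicate 1. The count of falls was 6 without day 6 replicate 2 and 7 without day 6 replicate 3, and the median stayed between −0.24 and −0.17 over all settings.

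Signalling genes changed in several pathways that bear on reprogramming. TGF-beta holds fibroblasts in the mesenchymal state, BMP favours the epithelial transition, and LIF acts through Stat3. Of 22 TGF-beta genes, 7 rose (31.8% against 7.83%) and 4 fell (18.2% against 11%). Among ligands, Inhba, a subunit of activin, stood at 8.32, 8.19 and 8.23 and then at 7.53, 7.21 and 7.46, a fall of 1.80-fold without overlap, while Tgfb2 rose 1.36-fold. Of the receptors, Tgfbr2 stood at 9.02, 9.17 and 9.01 and then at 9.84, 9.73 and 9.64, a rise of 1.59-fold (adjusted p = 0.00013) with the groups apart. The feedback inhibitors Smad7 and Skil fell 1.61-fold and 1.54-fold, the co-receptor gene Eng fell by 0.29, and Tgfbi, a matrix protein induced by TGF-beta, rose 1.61-fold. The list's median was −0.01. Day 6 replicate 1 scored 0.11 for this list, against −0.04 and −0.08 for day 6 replicates 2 and 3.

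Of 21 BMP genes, 3 rose (14.3% against 7.83%) and 9 fell (42.9% against 11%). The ligand Bmp4 stood at 9.37, 9.49 and 9.35 and then at 10.36, 10.26 and 10.02, a rise of 1.75-fold (adjusted p = 0.000251), Bmp6 rose 1.30-fold and the protease gene Bmp1 by 0.24. The ligand Bmp2 fell 1.51-fold and the extracellular antagonist Nog 1.29-fold. Smad9, a Smad of the BMP branch, stood at 7.59, 7.68 and 7.49 and then at 6.46, 6.70 and 6.19. Each day 6 array was lower than each day 3 array, a fall of 2.20-fold (adjusted p = 9.96e-05). Id1, a direct target, fell 1.52-fold (adjusted p = 0.000258). The falls numbered 5 without day 3 replicate 3, day 6 replicate 1 or day 6 replicate 2.

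Wnt genes had the highest median of the 39 lists. Of 34 tested, 12 rose and 0 fell (35.3% against 7.83%), with a median of 0.22 over all arrays and 0.13 without day 6 replicate 1, where 9 rose. An antagonist and a potentiator were among the rises: Sfrp1, a secreted antagonist, 1.64-fold and Rspo2, a potentiator, 1.64-fold. Dkk3, of the Dickkopf family, rose 1.61-fold. Among receptors, Fzd2 stood at 6.63, 6.65 and 6.53 and then at 7.53, 7.34 and 7.08, a rise of 1.64-fold (adjusted p = 0.000145) with groups apart. Fzd1 rose 1.56-fold and passed in 3 of 9 fits with arrays left out, and the orphan receptor Ror1 rose 1.37-fold.

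Of 17 genes of LIF and Stat3 signalling, 8 rose and 3 fell (47.1% and 17.6%, against 7.83% and 11%), with a median of 0.20 over all arrays and 0.13 without day 6 replicate 1. The receptor chains Lifr, Osmr and Il6st rose 1.43-fold, 1.46-fold and 1.50-fold, and the adaptor Gab1 1.51-fold. The feedback inhibitor Socs2 stood at 7.19, 7.49 and 7.36 and then at 9.27, 9.07 and 9.20. Both groups were tight, and the rise of 3.56-fold (adjusted p = 4.57e-05) was the largest of the list. Socs3, the feedback inhibitor that Stat3 induces, rose 1.52-fold (adjusted p = 0.000298). The 3 falls were those of Fgl2 (by 0.49) and of the kinases Jak2 (by 0.26) and Jak1 (by 0.21). They numbered 2 without day 3 replicate 1 and 1 without any of the other 5 control arrays.

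Of 20 AP-1 and immediate early genes, 6 rose (30% against 7.83%) and 3 fell (15% against 11%), with a median of 0.14, and these counts held with each control array left out in turn. Egr1, a transcription factor that serum and growth factors induce, stood at 8.79, 8.57 and 8.50 and then at 9.85, 9.68 and 9.40, a rise of 2.03-fold (adjusted p = 9.72e-06). Fos rose 1.68-fold, and the phosphatases Dusp4 and Dusp6, which act on MAP kinases, 1.69-fold and 1.62-fold. Jun, the partner of Fos in AP-1, stood at 9.84, 9.91 and 9.84 and then at 9.50, 9.29 and 9.32, a fall of 1.41-fold (adjusted p = 0.000709). The partners moved in opposite directions. Phlda1 fell 1.38-fold and Fosl2, another Fos family member, by 0.41.

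**Figure D3:**
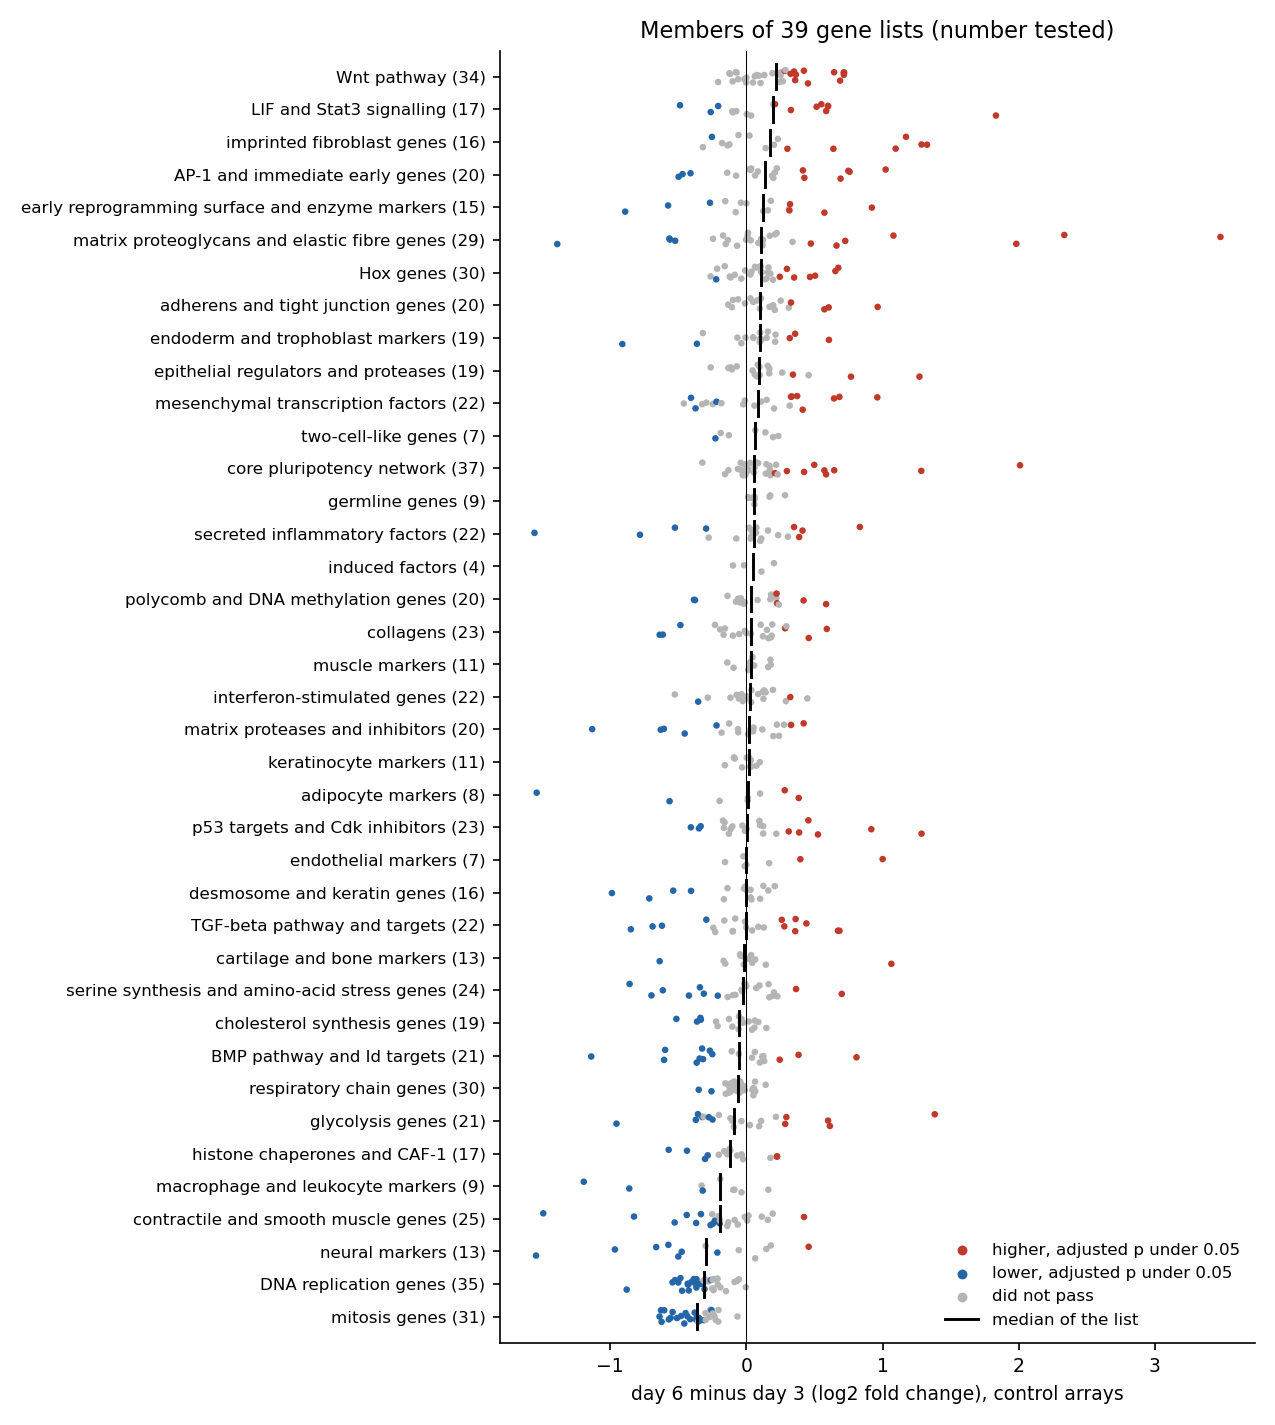
Each point is a tested member of 1 of 39 gene lists, placed at its difference between day 6 and day 3 in control cells (log2 fold change) with a random vertical offset. Red points passed as higher, blue points as lower, grey points did not pass, and the black bar is the list's median. Lists are ordered by median, from 0.22 for Wnt genes to −0.36 for mitosis genes.

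Genes of cell division held the largest share of falls among the 39 lists. Of 31 mitosis genes, 0 rose and 20 fell (64.5% against 11%), all 31 had a negative difference, and the median was −0.36. Ndc80, a kinetochore protein, stood at 9.56, 9.38 and 9.39 at day 3 and at 8.88, 8.87 and 8.67 at day 6, a fall of 1.56-fold (adjusted p = 0.000391). The midzone protein Prc1 and the cytokinesis scaffold Anln fell 1.54-fold each, and the mitotic kinase Aurka 1.52-fold. Birc5, which encodes survivin, fell 1.48-fold and the kinase gene Plk1 1.47-fold. Of 35 replication genes, 0 rose and 18 fell (51.4% against 11%), again with all 35 negative and a median of −0.31. Rrm2, a subunit of ribonucleotide reductase, stood at 10.31, 10.34 and 10.19 and then at 9.19, 9.53 and 9.48. The day 6 arrays were all lower, with replicate 1 the lowest, and the fall was 1.84-fold (adjusted p = 0.000121). The helicase subunits Mcm4 and Mcm5 fell 1.46-fold and 1.44-fold, the primase subunits Prim1 and Prim2 1.41-fold and 1.40-fold and the DNA ligase gene Lig1 1.39-fold.

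The counts of falls moved with the array of day 6 replicate 1. Its mitosis score was −0.33, against −0.08 and −0.17 for the other day 6 arrays, and its replication score −0.29, against −0.04 and −0.15. The day 3 scores ran from 0.14 to 0.26 for mitosis and from 0.09 to 0.21 for replication, so that no day 6 array reached the day 3 range. Without that array, 9 mitosis genes fell with a median of −0.28, and 7 replication genes with a median of −0.25. The mitosis count was also 12 without day 3 replicate 1 and the replication count 9 without day 3 replicate 2. The median per pair was −0.60, −0.24 and −0.31 for mitosis and −0.47, −0.25 and −0.21 for replication. The plot of list scores shows these arrays beside those for other lists.

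**Figure D4:**
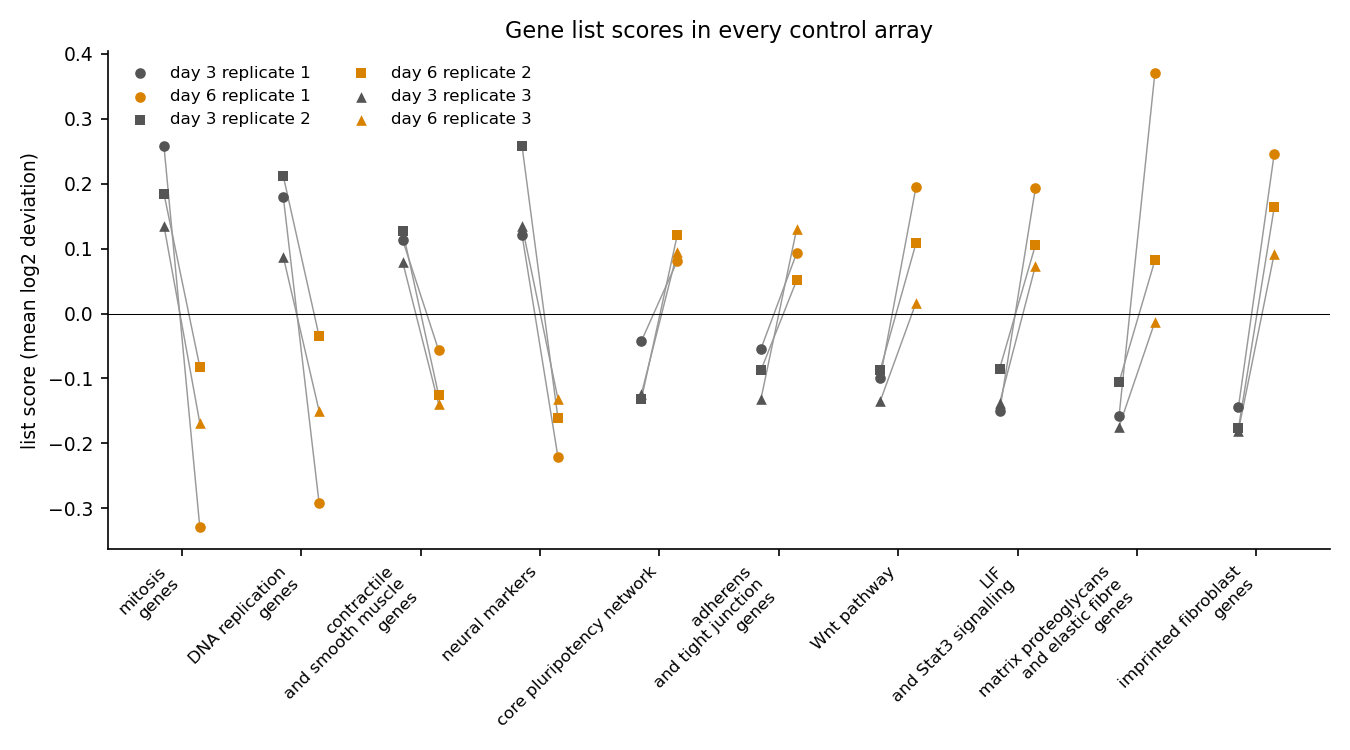
The vertical axis is the score of a gene list on 1 control array, the mean over members of the log2 deviation. Grey symbols are day 3, orange symbols day 6, the shape marks the replicate and a line joins each pair. Mitosis, replication, contractile and neural lists go down in all 3 pairs and the other 6 lists go up. Day 6 replicate 1 is lowest for mitosis (−0.33) and highest for matrix proteoglycans (0.37).

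The promoters of cell division genes are shown because they carry known cell cycle elements: the cell cycle homology region TTTGAA, read by the DREAM complex, and E2F sites, written here as TTTNGCGC. Of 31 mitosis genes 27 had a promoter in the table, and 21 of these (77.8%) held TTTGAA or TTCAAA. It was 20.2% of all 27025 genes of the promoter table and 15.4% of the tested genes with a promoter. Of all genes lower at day 6 with a promoter it was 16.9%. Among the mitosis genes that fell it was 12 of 17 (70.6%), a smaller share than in the whole list. TTTNGCGC or its reverse complement was found for 9 of 28 replication genes with a promoter (32.1%). It was 1.57% of all genes of the promoter table and 2.34% of the tested genes with a promoter. Of all genes lower at day 6 with a promoter it was 3.64%, and of the replication genes that fell 4 of 14 (28.6%). A gene with several windows was counted where any of them held the motif. These motifs too were chosen with the expression values known, and a match does not show that a factor was bound. Capitals mark the motifs in Prc1 (chr7:80294411-80294480, plus strand), Cdk1 (chr10:69352887-69353018, minus strand), Mcm5 (chr8:75109321-75109402, plus strand) and Mcm6 (chr1:128359710-128359850, minus strand). In both Mcm promoters, matches on opposite strands overlap and form a single longer run of capitals.
Prc1: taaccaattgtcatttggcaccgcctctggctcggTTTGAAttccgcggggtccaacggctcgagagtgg
Cdk1: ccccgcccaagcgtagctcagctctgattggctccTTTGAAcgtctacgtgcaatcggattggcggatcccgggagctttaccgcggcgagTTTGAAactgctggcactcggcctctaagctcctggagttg
Mcm5: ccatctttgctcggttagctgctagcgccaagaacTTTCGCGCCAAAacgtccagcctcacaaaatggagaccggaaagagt
Mcm6: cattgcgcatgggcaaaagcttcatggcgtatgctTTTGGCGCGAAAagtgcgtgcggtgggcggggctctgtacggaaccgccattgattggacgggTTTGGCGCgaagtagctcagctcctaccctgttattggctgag

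Of 23 p53 targets and inhibitors of cyclin-dependent kinases, 6 rose (26.1% against 7.83% of all genes) and 3 fell (13% against 11%), with a median of 0.00, and the counts held with each control array left out. Cdkn1c, which encodes the inhibitor p57, stood at 6.06, 5.68 and 5.68 and then at 7.36, 7.04 and 6.89. All pairs rose by a similar amount, 2.44-fold (adjusted p = 1.79e-05). Cdkn2a, the locus of p16 and p19Arf, a known barrier to reprogramming, stood at 10.16, 10.13 and 10.11 and then at 10.76, 10.68 and 10.54, a rise of 1.44-fold (adjusted p = 0.00102). Its neighbour Cdkn2b rose 1.31-fold and Cdkn1b, which encodes p27, 1.37-fold. The other kinase inhibitors of the list did not pass: Cdkn1a, which encodes p21, had a difference of −0.03, Cdkn2c of −0.17 and Cdkn2d of −0.16 (adjusted p = 0.769, 0.256 and 0.283). The stress-response gene Sesn1 rose 1.89-fold, while Tigar, a regulator of glycolysis that p53 induces, fell 1.33-fold, and Pmaip1 and Mdm2, 2 further p53 targets, fell by 0.35 and 0.34.

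Of 17 histone chaperones and CAF-1 subunits, 2 rose (11.8% against 7.83%) and 4 fell (23.5% against 11%), with a median of −0.12. The chaperone gene Asf1b fell 1.49-fold (adjusted p = 0.00194) and the CAF-1 subunit gene Chaf1b 1.35-fold (adjusted p = 0.00728). Chaf1a, the gene targeted in the other arrays of the study, stood at 7.44, 7.72 and 7.42 and then at 7.06, 7.30 and 7.31, a fall of 1.23-fold (adjusted p = 0.0385) that passed in 2 of 9 fits with arrays left out. Nap1l2, a nucleosome assembly protein, fell 1.22-fold, and the remodeller genes Rsf1 and Atrx rose 1.17-fold each. The falls numbered 2 without day 3 replicate 1 or 2 and without day 6 replicate 1 or 2, and the rises 0 without any array but day 3 replicate 2. Of 20 polycomb and DNA methylation genes, 4 rose (20% against 7.83%) and 2 fell (10%, near the 11% of all genes). Beside Tet1, the polycomb partner Jarid2 rose 1.34-fold (adjusted p = 0.00491), while Uhrf1 and Dnmt1, which maintain methylation after replication, fell 1.31-fold and 1.30-fold. Uhrf1 and Dnmt1 each passed in 3 of 9 fits with arrays left out. The rises numbered 2 without any of the day 6 arrays, and the falls 0 without day 3 replicate 1 or 2 or day 6 replicate 1, and 1 without day 3 replicate 3.

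Metabolic genes changed in both directions within a pathway. Of 21 glycolysis genes, 5 rose and 6 fell (23.8% and 28.6%, against 7.83% and 11%). Aldoc, an aldolase isoform, stood at 6.02, 6.00 and 6.10 and then at 7.70, 7.28 and 7.28, a rise of 2.61-fold (adjusted p = 2.81e-05). The phosphofructokinase gene Pfkp stood at 9.38, 9.54 and 9.41 and then at 8.53, 8.54 and 8.39, a fall of 1.94-fold (adjusted p = 8.21e-06). Both moved by far more than the spread of their replicates. The enolase gene Eno2 and the glucose transporter gene Slc2a3 rose 1.53-fold and 1.52-fold, Slc2a1 and Pdk1 rose by 0.29 and 0.28, and the lactate exporter gene Slc16a3 and Pgk1, a kinase of the pathway, fell 1.29-fold and 1.28-fold. The falls numbered 3 without day 3 replicate 2 or without day 6 replicate 1 or 2. Of 24 genes of serine synthesis and amino-acid stress, 2 rose (8.33%, near the 7.83% of all genes) and 7 fell (29.2% against 11%). Mthfd2, a mitochondrial folate enzyme, fell 1.81-fold, Slc7a5, an amino-acid transporter, 1.62-fold, and Phgdh and Psat1, which begin serine synthesis, 1.53-fold and 1.34-fold, while Pck2 rose 1.62-fold and Ddit4 1.29-fold.

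Of 19 cholesterol synthesis genes, 0 rose and 4 fell (21.1% against 11%). The falls were those of Msmo1 (1.43-fold, adjusted p = 0.00236), Sc5d (1.29-fold), Lss (1.26-fold) and Hsd17b7 (1.26-fold). The count was 1 without day 3 replicate 2 or day 6 replicate 2 and 2 without day 6 replicate 1. Of 30 respiratory chain genes, 0 rose and 2 fell, Cycs, which encodes cytochrome c (1.27-fold), and Cox5a (1.19-fold), or 6.67% against 11%. It was 1 without day 3 replicate 1 or 2 and without day 6 replicate 1 or 2. Of 8 adipocyte genes, 2 rose and 2 fell (25% each, against 7.83% and 11% of all genes). Lpl stood at 7.33, 7.58 and 7.75 and then at 6.30, 5.90 and 5.84. Pparg, the nuclear receptor of adipogenesis, fell 1.48-fold as well (adjusted p = 0.000155), whereas Cebpa and Cebpd rose 1.31-fold and 1.22-fold. The 2 rises were not called without day 3 replicate 2 or without day 6 replicate 2 or 3, and 1 was called without day 3 replicate 1 or 3.

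Secreted inflammatory factors were divided, with 4 of 22 higher and 4 lower (18.2% each, against 7.83% and 11%). Vcam1, an adhesion receptor induced by cytokines, stood at 10.64, 10.66 and 10.62 and then at 9.93, 9.83 and 9.81, a fall of 1.72-fold (adjusted p = 1.78e-05), and the chemokine gene Ccl7 fell 1.44-fold and Csf1 by 0.30. The chemokine gene Cxcl12 stood at 8.10, 8.30 and 8.21 and then at 9.38, 9.09 and 8.63, a rise of 1.78-fold (adjusted p = 0.00308) with day 6 replicate 3 the lowest of its day. Cxcl14 and Ptgis, which encodes prostacyclin synthase, rose 1.33-fold and 1.31-fold, and Cxcl1 by 0.35. The rises numbered 2 without day 6 replicate 1 or 2. Of 22 interferon-stimulated genes, Ifitm3 rose 1.25-fold and Ifit2 fell 1.28-fold (4.55% each, against 7.83% and 11%), and 20 did not pass. Ifitm3 passed in 1 and Ifit2 in 3 of 9 fits with arrays left out.

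Of 9 macrophage and leukocyte markers, 0 rose, 3 fell (33.3% against 11%) and 6 did not pass. Cd68, a lysosomal protein abundant in macrophages, stood at 8.88, 8.94 and 8.86 and then at 7.67, 7.82 and 7.62, a fall of 2.29-fold (adjusted p = 2.29e-06). Lyz2 fell 1.81-fold, with day 3 replicate 3 at 6.39 and the other day 3 arrays at 5.20 and 5.17, and Itgam 1.25-fold. Both Lyz2 and Itgam passed in fewer fits with arrays left out (3 and 7 of 9). The summed intensity of the 10 listed markers ranged from 835 to 905 on day 3 arrays and from 534 to 576 on day 6 arrays. Cd68 was the highest of these markers on every control array, so this linear sum mostly follows Cd68. The 6 that did not pass were Csf1r, Adgre1, Tyrobp, Fcer1g, C1qa and C1qb. Ptprc, the common leukocyte antigen, was under the 30th percentile on all 6 arrays. The part of these markers in the falls of Ptgs2 and other inflammatory genes was not tested.

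Of 13 neural markers, 1 rose (7.69%, near the 7.83% of all genes) and 7 fell (53.8% against 11%), with a median of −0.30. Beside Nefl, at 6.79, 7.20 and 6.70 and then at 5.26, 5.37 and 5.42, the neuronal tubulin gene Tubb3 fell 1.95-fold, Stmn2, a regulator of microtubules, 1.58-fold and Gap43, a growth cone protein, 1.39-fold. Map2 (1.49-fold) and the intermediate filament gene Nes (1.41-fold) fell in all 3 pairs with overlapping groups, replicate 2 being the highest for Map2 on both days. Sox11, a transcription factor of neural precursors, was the only rise (by 0.46), and Ncam1, an adhesion molecule, fell by 0.21. For the 6 neural markers with a probe set in the marker list, the summed intensity ranged from 968 to 1425 on day 3 arrays and from 706 to 897 on day 6 arrays. Nes was the highest of these 6 on every control array, so the sum mostly follows Nes. Dcx was under the 30th percentile on all 6 arrays. Of 7 endothelial markers, 2 rose and 0 fell (28.6% against 7.83% of all genes), and 5 did not pass. The median was −0.00, with 4 of 7 negative. Kdr, a receptor of VEGF, rose 2.00-fold (adjusted p = 0.000355) and Cdh5, a cadherin, 1.32-fold. Without day 3 replicate 3 or day 6 replicate 3, 1 of them was called. Tek, the highest of the markers on every control array, had a difference of −0.16 and did not pass. Emcn was under the 30th percentile on all 6 arrays. None of 11 muscle markers, 11 keratinocyte markers and 9 germline genes passed. The 2 with the smallest p were Actc1 and Msc for muscle (differences of 0.18 each), Dsc3 and Dsg3 for keratinocytes (−0.16 and 0.10) and Stag3 and Nanos3 for germline (0.28 and 0.17).

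Among 13 cartilage and bone markers, 1 rose and 1 fell (7.69% each, against 7.83% and 11% of all genes). Col10a1 rose 2.09-fold (adjusted p = 0.0207) and Col2a1 fell. Col10a1 stood at 8.25 on day 6 replicate 1 and at 7.30 and 7.41 on the other day 6 arrays, and it did not pass without that array. No marker of the list was called higher without day 3 replicate 1, day 6 replicate 1 or day 6 replicate 3. Of 19 endoderm and trophoblast markers, 3 rose (15.8% against 7.83%) and 2 fell (10.5%, near the 11% of all genes). Gata2, a factor of trophoblast and blood, stood at 7.84, 8.07 and 7.66 and then at 7.26, 6.95 and 6.61, a fall of 1.88-fold (adjusted p = 0.000176), and Gata6 fell 1.29-fold (passing in 2 of 9 fits with arrays left out). The endocytic adaptor Dab2 rose 1.52-fold, Tfap2a 1.28-fold and the chemokine receptor gene Cxcr4 1.25-fold. Of 7 two-cell-like genes, 0 rose and 1 fell (14.3% against 11%). Eif1a fell 1.17-fold, passing in 1 of 9 fits with arrays left out, and Arg2 had a difference of 0.23 (adjusted p = 0.0670).

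Cdkn1c is also one of the imprinted genes that fibroblasts express. Of 16 such genes tested, 6 rose and 1 fell (37.5% against 7.83% and 6.25% against 11%), with a median of 0.17. Peg3, a zinc finger protein, stood at 8.45, 8.48 and 8.31 and then at 10.01, 9.71 and 9.50, a rise of 2.51-fold (adjusted p = 1.78e-05). Nnat, which encodes neuronatin, rose 2.25-fold, Mest 2.14-fold, the growth factor gene Igf2 1.56-fold and Sgce 1.23-fold. All day 6 arrays of these genes were above all day 3 arrays. Impact fell by 0.25 with overlapping groups, and this was not called without day 3 replicate 2 or 3 or without day 6 replicate 2. Of 30 Hox genes, which keep positional identity in fibroblasts, 7 rose and 1 fell (23.3% and 3.33%, against 7.83% and 11%), with a median of 0.11. Genes of the HoxA cluster made up 6 of the 7 rises, which was seen in the values and not tested. Hoxa10 rose 1.60-fold, Hoxa2 1.57-fold, Hoxa9 1.42-fold, Hoxa6 1.38-fold and Hoxa5 1.28-fold, Hoxa7 rose by 0.25, and Hoxd8, outside the cluster, rose 1.23-fold. Hoxb4 fell by 0.22 with overlapping groups. The rises numbered 4 without day 6 replicate 2.

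The same time comparison with the Chaf1a hairpin gave 1524 genes higher (8.53%) and 1985 lower (11.1%). Of these, 934 were higher with both hairpins, which is 66.8% of the control list and 61.3% of the knockdown list, and 1330 were lower with both, 67.5% and 67%. The 2 comparisons share no array, though all 12 arrays share 1 estimate of the spread. The test of the difference between the time changes passed for 0 of 17860 genes (0%), with 1028 at an unadjusted p under 0.05 and a smallest adjusted p of 0.0959, so a gene called with 1 hairpin and not the other is not shown to differ. That smallest value belonged to Car2, a carbonic anhydrase, the only gene called in opposite directions, named after its values were seen. In control cells it stood at 6.89, 6.98 and 6.77 at day 3 and at 6.19, 5.60 and 5.67 at day 6, a fall of 2.09-fold (adjusted p = 0.000389). In knockdown cells it stood at 7.61, 6.85 and 7.12 and then at 8.18, 7.41 and 7.51, a rise in all 3 pairs with overlapping groups (0.50, adjusted p = 0.0239). The difference was 1.56 (SE 0.19), and its adjusted p ran from 0.00169 without control day 3 replicate 1 to 0.999 without replicate 2 or 3.

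Some genes described above had larger or smaller time changes with the Chaf1a hairpin, none past the test of the difference. Nanog changed by −0.04 in control cells and by 0.60 in knockdown cells, and Sall4 by 0.06 and 0.87 (adjusted p = 0.132 for the difference of each). Cdh1 rose by 0.96 and 1.99 (adjusted p = 0.671 for the difference) and Spint1 by 1.27 and 2.34 (0.785). Trh changed by −2.54 and −1.20 (0.785). For the genes with the largest changes the values were close: Tac2 rose by 3.03 and 3.29, Apela by 2.93 and 3.48 and Eln by 2.33 and 2.23, while U90926 changed by −3.18 and −3.15. Among lists, 20 mitosis genes fell in control cells and 9 in knockdown cells, with medians of −0.36 and −0.23, and 18 and 5 replication genes, with medians of −0.31 and −0.17. Of the pluripotency network 9 and 18 rose, with medians of 0.06 and 0.25. These differences between lists were not tested.

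**Figure D5:**
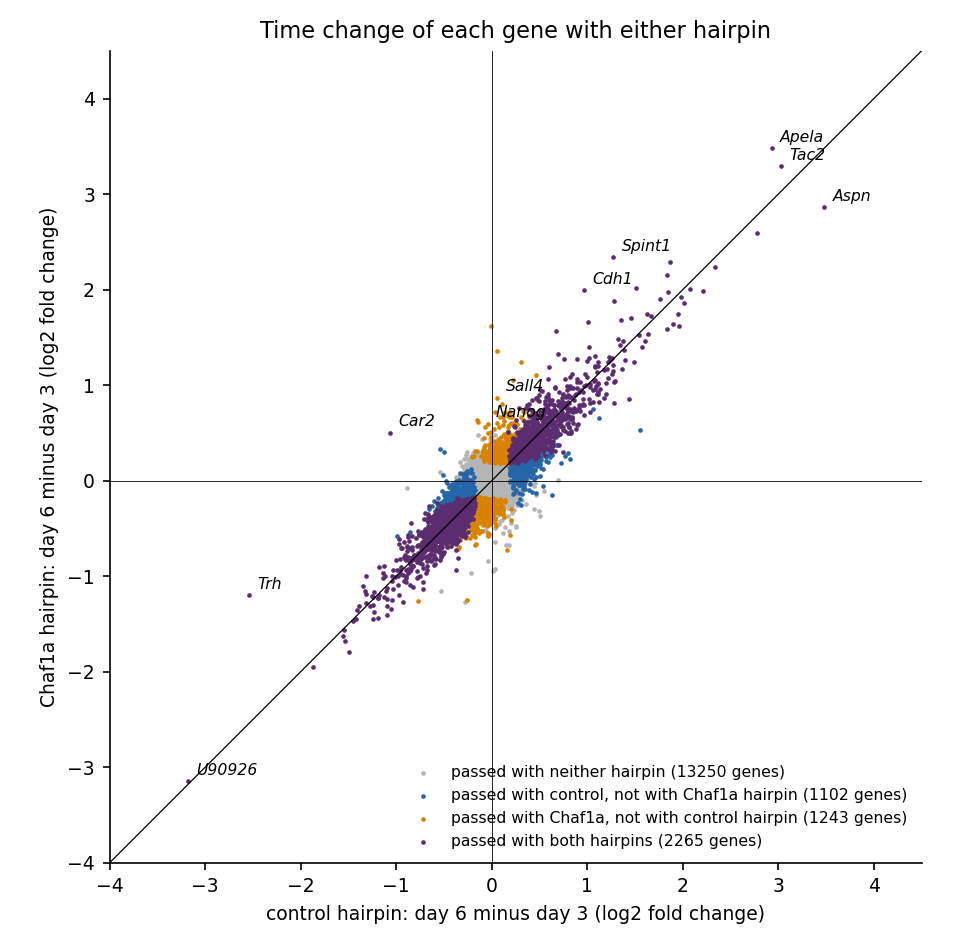
Each point is 1 of 17860 genes, with its difference between day 6 and day 3 (log2 fold change) for the control hairpin on the horizontal axis and for the Chaf1a hairpin on the vertical axis. Purple points passed with both hairpins (2265), blue and orange points with 1 of them (1102 and 1243) and grey points with neither, and the diagonal marks equal change. Car2 is the only gene that passed in opposite directions, and 0 genes passed the test of the difference.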

How the data were processed

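RNA of the 12 samples was labelled with the Affymetrix WT PLUS kit and hybridised to 1-colour arrays. The authors summarised probe sets with Affymetrix Expression Console 1.3.0.187 and RMA, per the submitters' processing notes. A genome build is named nowhere in the labels or notes used here. The authors' deposited values are intensities on a linear scale (4.71 to 13421), of which log2 was taken. Scanner background and dim-spot flags were not used here. The number of arrays limits the precision.

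Of 41345 probe sets, 23521 name 1 gene, 1814 several and 16010 none in the platform annotation. Those naming 1 gene gave 22180 genes, and where a gene had several (1082 genes), the one with the highest mean was used. Genes at or above their array's 30th percentile (4.30 to 4.38) in at least 3 of 12 arrays were tested. limma 3.58.1 in R 4.3.3 fitted 4 group means and a replicate block to all 12 arrays, and p-values were adjusted by Benjamini-Hochberg, 0.05 being the threshold. The labels give groups the same replicate numbers. Paired control arrays deviated together, with correlations of 0.24, 0.32 and 0.18, against −0.25 to −0.01 for different numbers, and 17 of 18 same-number pairs over the 4 groups were over 0.1. Deviations from a group mean cancel within the group, so positive same-number values tend by themselves to make the different-number values negative. The script was tested on simulated data.

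Named genes were a set of reprogramming markers, the 15 largest rises and falls without overlap between groups and, for each of 39 lists, up to 6 members that passed by size or, where fewer than 2 passed, the 2 with the smallest p. Predicted genes and RNA genes were left out of the largest rises and falls. Of the list genes, 780 matched and 59 did not. The lists, the members and the comparison were chosen with earlier results of these data known. Alternatives changed the block, samples, filter, normalization, probe sets, prior, array weights and offset, and left out arrays or replicates. Promoters and microRNAs came from RefSeq tables of GRCm38.p6, and figures were drawn with Python 3.11.15 and matplotlib 3.10.9.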

Additional observations from a re-analysis of the deposited data

How the results depend on the processing

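With all 12 arrays and no replicate block, 1248 genes were higher and 1892 lower, against 1398 and 1969 with the pairing, and 14 named genes no longer passed. Over the fits that left out 1 control array or 1 replicate number, the count of higher genes ran from 637 to 1240 and that of lower genes from 697 to 1869. The other settings gave 940 to 1870 higher and 1576 to 2478 lower. Under median centring 940 were higher and 1998 lower, and with the quantile normalization repeated 1593 and 1748. No named gene that passed changed direction in any setting. Fut4, Pou5f1, Sall4, Snai2 and Vim, which passed in none, took differences of either sign. The test of the difference between hairpins passed for 1 gene, Car2, under median centring, under the intensity trend and robust prior, with array weights and with an offset of 16, and for 0 to 2 genes with an array or replicate number left out, the 2 being Car2 and Tdgf1 without replicate 1. The cause was not tested. The fit on the 6 control arrays holds no knockdown array and so gives no value for that difference. Signal over background limits genes near the filter: 31 higher genes had a day 3 mean and 16 lower genes a day 6 mean under it.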

Other observations

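MicroRNA genes were not part of any list. Of 242 tested, 9 were higher and 3 lower at day 6 in control cells (3.72% and 1.24%, against 7.83% and 11% of all genes), with a median difference of 0.08 on the log2 scale. They are named after their values were seen, and a probe set may read the precursor or its host transcript and not the mature microRNA. Mir145a stood at 5.77, 4.53 and 5.71 at day 3 and at 7.45, 6.74 and 6.47 at day 6, a difference of 1.55 (SE 0.29, limma adjusted p = 0.00377). Mir143, of the same smooth muscle cluster, stood at 5.79, 5.37 and 5.78 and then at 6.90, 6.63 and 6.65, a difference of 1.08 (limma adjusted p = 0.0044). Mir23b stood at 7.14, 6.23 and 6.48 and then at 8.37, 7.69 and 7.63, a difference of 1.28 (limma adjusted p = 9.52e-05). In these 3, every day 6 array was above every day 3 array. With the Chaf1a hairpin the differences of Mir145a and Mir23b were 0.53 and 0.81, and the test between hairpins did not pass for either (adjusted p = 0.83).

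The other rises were those of Mir199a-1 (0.53), Mir218-1 (0.48), Mir542 (0.46), Mir135b (0.41), Mir1190 (0.33) and Mir709 (0.23), and the falls those of Mir1983 (−0.56), Mir5103 (−0.48) and Mir1949 (−0.46). Mature sequences (RefSeq, GRCm38.p6) are shown for 3 of the genes that rose, with the seed, bases 2 to 8, in capitals. The seeds shown differ from each other.
mmu-miR-23b-5p: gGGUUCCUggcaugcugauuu
mmu-miR-218-5p: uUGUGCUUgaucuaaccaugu
mmu-miR-542-3p: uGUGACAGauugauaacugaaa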
